A study of Mus musculus with 12 samples.

Results

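The NELFA and H3K27ac peak lists of mouse embryonic stem cells (mESCs) were set side by side, to describe where acetylated nucleosomes lie around sites of NELFA binding and how H3K27ac peaks with NELFA differ from those without it. All listed peaks of both lists were taken: 1980 NELFA peaks and 19417 H3K27ac peaks, out of 128567 peaks in the 7 ChIP-seq peak lists of the series. On the assembled chromosomes, 1979 and 19305 of them remained, and all comparisons refer to these. The study as a whole mapped the Paf1 complex subunit Ctr9 and H3K27ac and measured mRNA in mESCs and in NIH3T3 fibroblasts, and mapped NELFA and RNAPII in mESCs. All mESC samples were labelled ES-E14, which the growth protocol gives as E14TG2a, and the cells grew in serum with LIF. NELFA was precipitated through a GFP tag with an anti-GFP antibody, so its peaks report a tagged fusion protein, whereas H3K27ac was precipitated with an antibody against the mark. RNAPII Ser5p was mapped in the NELFA-tagged cells. Ctr9, used below as another readout, was also precipitated through a GFP tag, in separate Ctr9-GFP knock-in cells. Whether the H3K27ac library also came from tagged cells is not given in the sources used here. Each list came from 1 library, so nothing could be tested across replicates. The 95% intervals given below (exact Clopper-Pearson for shares, exact order statistics for medians) cover counting error over peaks or genes, which share their library and are not replicates.

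NELFA is a subunit of the negative elongation factor, which together with DSIF holds RNAPII shortly after initiation until P-TEFb releases it into productive elongation. H3K27ac, deposited mainly by p300 and CBP, marks nucleosomes at active promoters and enhancers. Active promoters hold a nucleosome-poor stretch in which RNAPII assembles, with positioned nucleosomes on its sides.

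The mESC library expressed the pluripotency genes *Pou5f1* (1402 TPM), *Sox2* (364 TPM), *Nanog* (281 TPM), *Zfp42* (286 TPM) and *Esrrb* (211 TPM), while the fibroblast collagen genes *Col1a1*, *Col1a2* and *Col5a1* were at 0.203, 0.132 and 2.38 TPM. *Hprt*, which is inactive in E14TG2a cells, was at 0.0522 TPM. Of these 5 pluripotency genes, *Sox2* and *Zfp42* had H3K27ac peaks within 1 kb, and *Pou5f1*, *Nanog* and *Esrrb* had none.

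Promoters of some genes named below are printed first as examples, along the direction of the gene. They run from 170 bases upstream of the annotated start to the first 30 bases of the transcript. The sequence is RefSeq GRCm38, that of mm10, and the start is base 171. *Polr2a* stands for starts with H3K27ac on both sides of NELFA, *Fos*, *Junb* and *Hist1h1a* for strong NELFA sites without H3K27ac within 1 kb of the NELFA peak, and *Rnu2-10* for small nuclear RNA genes with strong peaks in both lists. Capitals mark the TATA box letters TATAAA, the CAAT box letters CCAAT and the GC box letters GGGCGG on either strand. The windows are chr11:69758608-69758807, minus strand, for *Polr2a*, chr12:85473720-85473919, plus strand, for *Fos*, chr8:84978689-84978888, minus strand, for *Junb*, chr13:23763496-23763695, plus strand, for *Hist1h1a*, and chr11:101658068-101658267, plus strand, for *Rnu2-10*.
Polr2a: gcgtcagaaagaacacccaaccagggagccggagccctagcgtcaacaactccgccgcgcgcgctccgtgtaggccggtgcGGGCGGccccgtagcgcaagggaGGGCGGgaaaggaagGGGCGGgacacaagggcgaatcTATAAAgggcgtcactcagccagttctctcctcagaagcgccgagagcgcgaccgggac
Fos: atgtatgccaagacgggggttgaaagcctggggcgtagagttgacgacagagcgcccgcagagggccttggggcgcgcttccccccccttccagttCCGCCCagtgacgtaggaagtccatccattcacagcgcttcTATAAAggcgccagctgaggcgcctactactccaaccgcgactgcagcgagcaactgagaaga
Junb: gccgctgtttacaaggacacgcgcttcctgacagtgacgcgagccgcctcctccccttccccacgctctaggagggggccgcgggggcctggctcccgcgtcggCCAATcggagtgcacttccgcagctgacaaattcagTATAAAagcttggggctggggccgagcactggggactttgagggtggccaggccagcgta
Hist1h1a: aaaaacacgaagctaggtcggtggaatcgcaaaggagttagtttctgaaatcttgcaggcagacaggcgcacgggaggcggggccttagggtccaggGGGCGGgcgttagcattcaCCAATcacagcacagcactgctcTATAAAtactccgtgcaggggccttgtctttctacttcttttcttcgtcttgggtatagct
Rnu2-10: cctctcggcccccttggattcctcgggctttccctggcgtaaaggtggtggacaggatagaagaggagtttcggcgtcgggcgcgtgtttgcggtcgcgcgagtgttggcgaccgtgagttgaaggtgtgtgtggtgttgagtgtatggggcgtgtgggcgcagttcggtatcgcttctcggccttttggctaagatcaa

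In the *Fos*, *Junb*, *Hist1h1a* and *Polr2a* promoters, TATAAA began 33, 30, 31 and 29 bases upstream of the annotated start. They are not typical in this. TATAAA was in 7.22% of windows around NELFA summits at starts with H3K27ac and in 17.1% of those without. The *Rnu2-10* window held none of these motifs.

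H3K27ac was found at most NELFA sites. Of the 1979 NELFA peaks, 1665 (84.1%, interval 82.4 to 85.7%) shared 1 bp or more with an H3K27ac peak, 124 (6.27%) lay within 1 kb of one without touching it, and 190 (9.60%, interval 8.34 to 11%) had none within 1 kb. NELFA peaks overlapping or within 1 kb of H3K27ac thus made up 90.4% of the list. H3K27ac peaks covered 9.47 Mb, 0.348% of the assembled chromosomes, or 1.47% when widened by 1 kb on each side. The reverse share was much smaller, since the H3K27ac list was far longer: 2575 of 19305 H3K27ac peaks (13.3%) had NELFA overlapping or within 1 kb. Among NELFA peaks ordered by fold enrichment, the share with H3K27ac was about the same throughout, from 89.6% in the weakest 20% to 91.4% in the strongest 20%.

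The share with H3K27ac varied with location. At 1509 NELFA peaks (76.3%), the summit was no more than 1 kb from a protein-coding gene start, with a median position 43 bps downstream. Of these peaks at gene starts, 92.6% (interval 91.2 to 93.9%) had H3K27ac overlapping or within 1 kb, against 83.2% (interval 79.5 to 86.5%) of the 470 peaks away from gene starts. The intervals did not overlap. Away from starts, small RNA genes (43 of 49 peaks, 87.8%), long noncoding RNA starts (43 of 48, 89.6%) and gene bodies (171 of 197, 86.8%) had H3K27ac at similar shares. Only the outermost annotated start of each protein-coding gene was used, so peaks in gene bodies can include those at other promoters of the gene. Intergenic NELFA peaks had the lowest share (134 of 176, 76.1%, interval 69.1 to 82.2%), and its interval overlapped those of small RNA genes (75.2 to 95.4%), long noncoding RNA starts (77.3 to 96.5%) and gene bodies (81.3 to 91.2%).

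The strongest NELFA sites belonged to a few kinds of genes. Of the 50 NELFA peaks with the highest fold enrichment, 16 lay within 1 kb of a replication-dependent histone gene start and 24 others at a small RNA gene, although small RNA genes made up 4.50% of the whole list and histone genes 1.57%. Of these 50 peaks, 49 had H3K27ac overlapping or within 1 kb. The exception was the strongest NELFA peak of the list, at the linker histone gene *Hist1h1a* (chr13:23763383-23765014, 30.5-fold), whose edge lay 1064 bps from the nearest H3K27ac peak. Among NELFA peaks overlapping H3K27ac, the highest were at the snRNA gene *Gm24871* upstream of *Alyref2* (28.2-fold), at *Polr2a*, which encodes the largest RNAPII subunit (27.5-fold), at the H4 gene *Hist1h4i* (26.9-fold), at the snRNA gene *Gm22068* in *Tex14* (26.2-fold) and at the H3 gene *Hist1h3h* (25.7-fold). Small RNA and histone genes are present in near-identical copies, so reads could be placed at more than 1 copy and these folds are uncertain.

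H3K27ac summits mostly lay beside the NELFA summit, more often on a single side than on both. The nearest one within 1 kb was at a median of 158 bps at gene starts (n = 1389) and 178 bps elsewhere (n = 378). Within 1 kb of the NELFA summit, 658 of 1979 sites (33.2%, interval 31.2 to 35.4%) had an H3K27ac summit on each side, 1109 (56.0%) on a single side, and 212 (10.7%) on neither. The share with a summit on each side was 20.6% within 500 bps, and 18.1% when the stronger 50% of H3K27ac peaks alone were used. The NELFA summit itself lay inside an H3K27ac peak at 61.1% of sites, fewer than the 84.1% at which the peaks overlapped.

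Along the direction of transcription the flanks were unequal. At the 1509 NELFA summits at gene starts, an H3K27ac summit was found within 1 kb downstream at 1172 sites (77.7%, interval 75.5 to 79.7%) and upstream at 745 sites (49.4%, interval 46.8 to 51.9%). Of these sites, 644 (42.7%) had the downstream summit alone, 217 (14.4%) the upstream summit alone, 528 (35.0%) both and 120 (7.95%) neither. The downstream summit was also closer, at a median of 186 bps (interval 174 to 200, n = 1172) against 280 bps upstream (interval 259 to 302, n = 745). Where any summit was within 1 kb, the nearest was downstream at 961 of 1389 sites (69.2%, interval 66.7 to 71.6%).

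**Figure D1:**
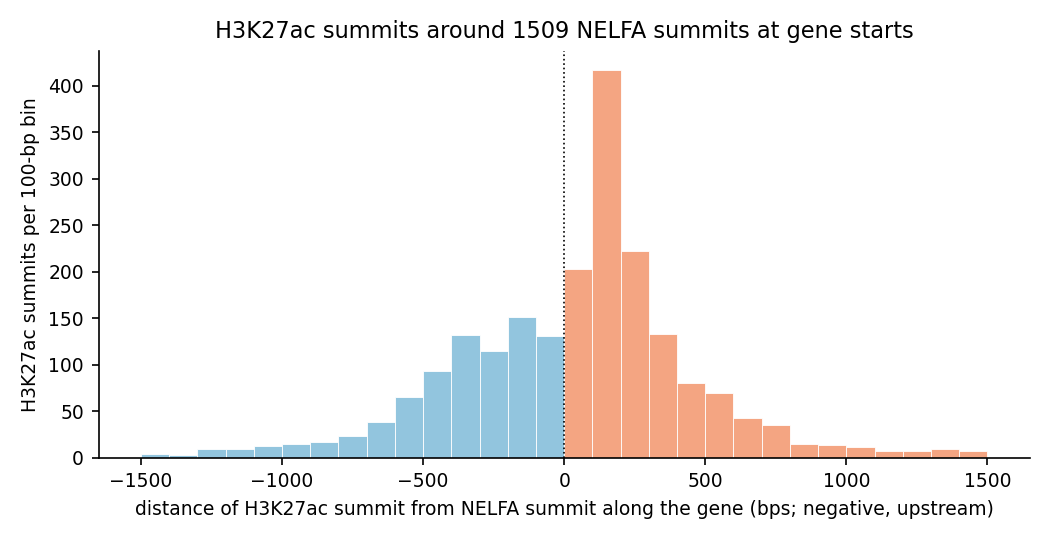
Number of H3K27ac summits (y axis) in bins of 100 bps by distance from the NELFA summit along the gene (x axis, bps; blue, upstream; orange, downstream), for the 1509 NELFA summits at gene starts. The highest bin, 100 to 200 bps downstream, holds 417 summits, against 152 in the mirror bin upstream.

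In the histogram of summit distances, the bin 100 to 200 bps downstream held 417 H3K27ac summits, or 27.6 per 100 NELFA sites, and the same distance upstream held 152. The first 100 bps held fewer than the next 100 on either side, 203 downstream and 131 upstream. The upstream summits were spread more evenly, with 132 still at 300 to 400 bps.

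At the 528 starts with a summit on each side, the H3K27ac summits were a median of 581 bps apart (interval 558 to 602). The downstream peak had the higher fold enrichment at 329 of these starts (62.3%, interval 58.0 to 66.5%), with medians of 5.29-fold downstream and 4.12-fold upstream, and it was the wider of the pair at 56.8%. At starts on both strands the imbalance in fold was not seen. Direction there followed the start nearest to the NELFA summit, so the downstream side was that of the closer start. The difference in distance at these starts therefore depends on how direction was chosen, and no conclusion is drawn from it. At the 102 flanked starts with another start on the opposite strand within 1 kb, the downstream peak had the higher fold at 45 (44.1%, interval 34.3 to 54.3%), and an upstream H3K27ac summit was found at 63.2% of such starts, against 46.5% of starts with a single orientation. A downstream summit was found at 71.6% of starts on both strands and at 78.9% of the others. At the same 102 starts, the downstream summit was the nearer at 74 (72.5%, interval 62.8 to 80.9%), with medians of 168 bps downstream and 372 bps upstream.

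Where the NELFA summit at a gene start was not covered by an H3K27ac peak, it often sat in a gap. Of 529 such summits, 184 (34.8%) lay between H3K27ac peaks on each side within 1 kb, with a median gap of 246 bps between the peak edges. Another 189 (35.7%) had an H3K27ac peak downstream alone, 45 (8.51%) upstream alone, and 111 (21%) none.

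*Actb*, the cytoplasmic beta-actin gene at 1157 TPM, had H3K27ac summits on both sides of NELFA, with the NELFA summit inside the downstream H3K27ac peak. Its stronger NELFA peak (13.1-fold, summit 75 bps downstream of the start) had an H3K27ac summit 122 bps further downstream in a peak of 8.57-fold and another 418 bps upstream in a peak of 3.29-fold. At *Polr2a*, the NELFA summit lay 56 bps downstream of the start, with H3K27ac summits 108 bps downstream and 673 bps upstream of it and similar folds of 5.61 and 6.13. *Tuba1b*, an alpha-tubulin gene, had a weaker NELFA peak of 5.19-fold with H3K27ac summits 172 bps downstream and 576 bps upstream. *Jund*, an AP-1 subunit gene, had NELFA of 11.6-fold with summits 299 bps downstream and 319 bps upstream. *Btg1*, an antiproliferative gene, had NELFA of 13.3-fold and a wide H3K27ac peak of 1264 bps downstream, with no upstream summit within 1 kb.

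**Figure D2:**
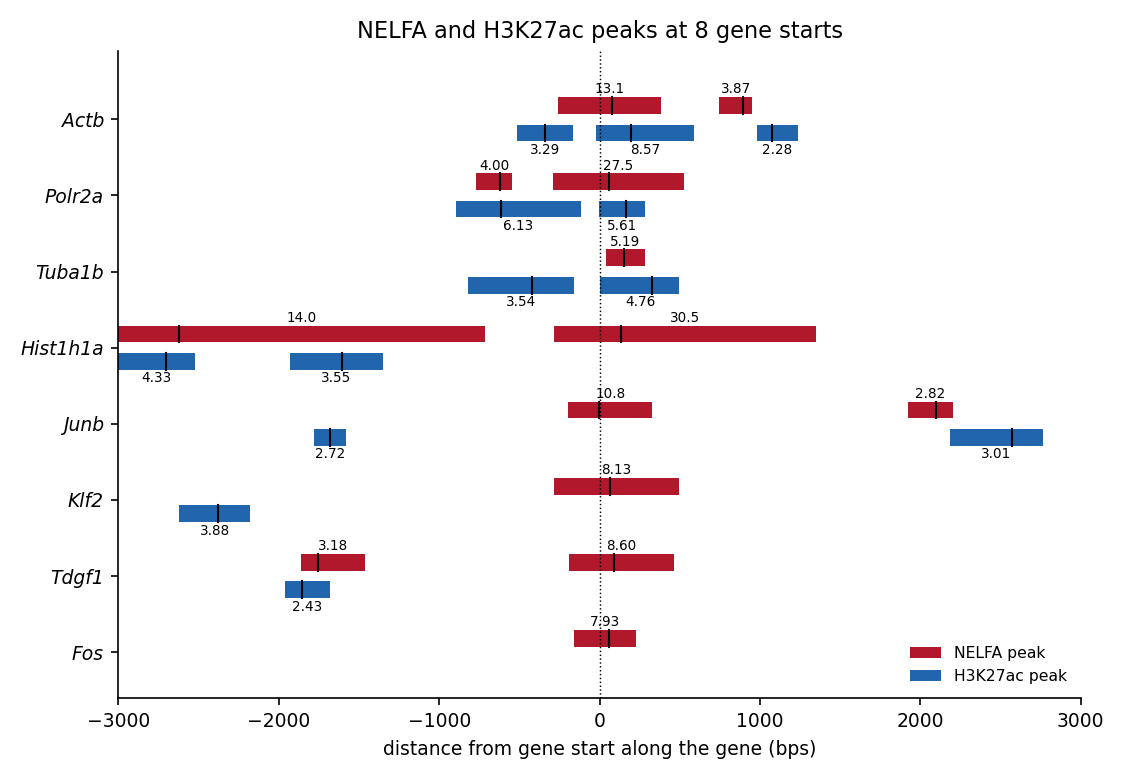
Positions of NELFA peaks (red) and H3K27ac peaks (blue) within 3000 bps of 8 gene starts, along the direction of each gene (x axis, bps). Black ticks are summits and numbers are fold enrichment. At Actb, Polr2a and Tuba1b, H3K27ac lies on both sides of the start, and at Hist1h1a, Junb, Klf2, Tdgf1 and Fos no H3K27ac peak lies within 1 kb of it.

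H3K27ac at gene starts with and without NELFA was compared within classes of expression. All 21938 protein-coding gene starts were used: 7092 (32.3%) had H3K27ac within 1 kb and 1774 (8.09%) had NELFA. Both were at 1643 starts, NELFA alone at 131, H3K27ac alone at 5449 and neither at 14715. Each gene was given only its outermost annotated start, while its TPM was that of its highest transcript. The start of a highly expressed gene thus need not be the one in use. How far this lowers the H3K27ac share of starts without NELFA was not tested. Among highly expressed genes, the top 25% of those with a TPM above 0 and at least 21.6 TPM, 966 of 1010 starts with NELFA had H3K27ac (95.6%, interval 94.2 to 96.8%), against 2302 of 3030 without NELFA (76.0%, interval 74.4 to 77.5%). The difference was larger in the medium class, the middle 50%, with 628 of 706 (89.0%) against 2951 of 7372 (40.0%). Few genes of the low class, the bottom 25%, or of the class at 0 TPM had NELFA, but most that did had H3K27ac: 28 of 35 low genes (80.0%, interval 63.1 to 91.6%) and 19 of 20 genes at 0 TPM (95%, interval 75.1 to 99.9%), against 3.15% and 1.13% of genes without NELFA. Of those 55 starts with NELFA, 11 were replication-dependent histone genes, whose mRNAs lack poly(A) tails. A start had a mark when a peak lay within 1 kb, so neighbouring genes can share a peak. At 0 TPM, 4 histone genes had NELFA. At *Hist1h2bl* and *Hist1h2ab* the NELFA summit lay at -1590 and 1350 bps from the start, in peaks shared with *Hist1h3h* and *Hist1h3b*. At *Hist1h4c* and *Hist1h2ba* it lay at 21 and 282 bps. How many of the 55 starts had the marks of a neighbouring gene was not tested.

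**Figure D3:**
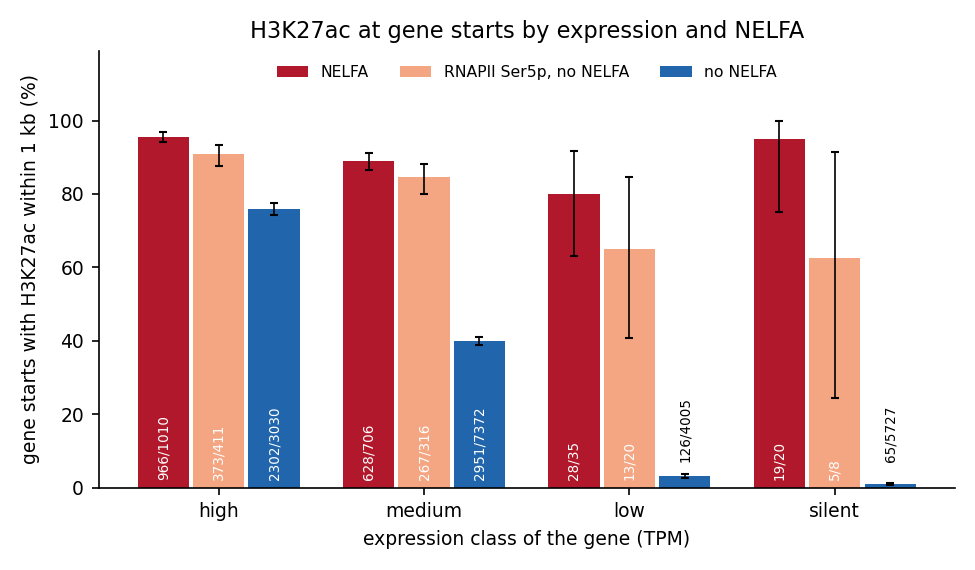
Share of gene starts with an H3K27ac peak within 1 kb (y axis, percent) by expression class (x axis), for starts with NELFA (red), starts with RNAPII Ser5p and no NELFA (light orange) and all starts without NELFA (blue). Bars give the share with its 95% exact interval, and the counts stand in the bars. Starts with NELFA are above all starts without NELFA in each class, from 95.6 against 76.0% in the high class to 95 against 1.13% at 0 TPM.

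Within the high class, genes with NELFA were themselves more highly expressed, at a median of 69.7 TPM against 43.8 TPM. With the class limited to at least 100 TPM, the shares were 95.5% (338 of 354) and 77.3% (425 of 550). Starts with RNAPII Ser5p and no NELFA lay closer to those with NELFA, and had H3K27ac at 90.8% in the high class (interval 87.5 to 93.4%) and at 84.5% in the medium class (interval 80.0 to 88.3%). The high class interval lay below that of NELFA starts, and the medium class intervals, 80.0 to 88.3% and 86.4 to 91.2%, overlapped. Over all gene starts, the values were 92.6% with NELFA and 87.1% with Ser5p alone. The median mRNA level was 30.3 TPM at starts with NELFA and H3K27ac, 12.4 TPM with NELFA alone, 16.7 TPM with H3K27ac alone and 0.0925 TPM with neither.

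Around the starts of highly expressed genes, H3K27ac coverage was higher on each flank, taken separately, where NELFA was present. These starts also more often had any H3K27ac peak within 1 kb (95.6 against 76.0%), which the coverage values do not take out. At highly expressed starts with NELFA, H3K27ac peaks covered 83.9% of sites at 250 bps downstream, fell to 27.6% at 100 bps upstream, and returned to 47.1% at 300 bps upstream. Without NELFA, the same positions were covered at 63.5%, 15.7% and 23.2% of sites. The dip just upstream of the start was present in both sets of genes. Away from gene starts no such asymmetry was defined, and coverage around NELFA summits was 48.7% at the summit with maxima of 46.0% and 45.1% at 50 bps on each side.

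**Figure D4:**
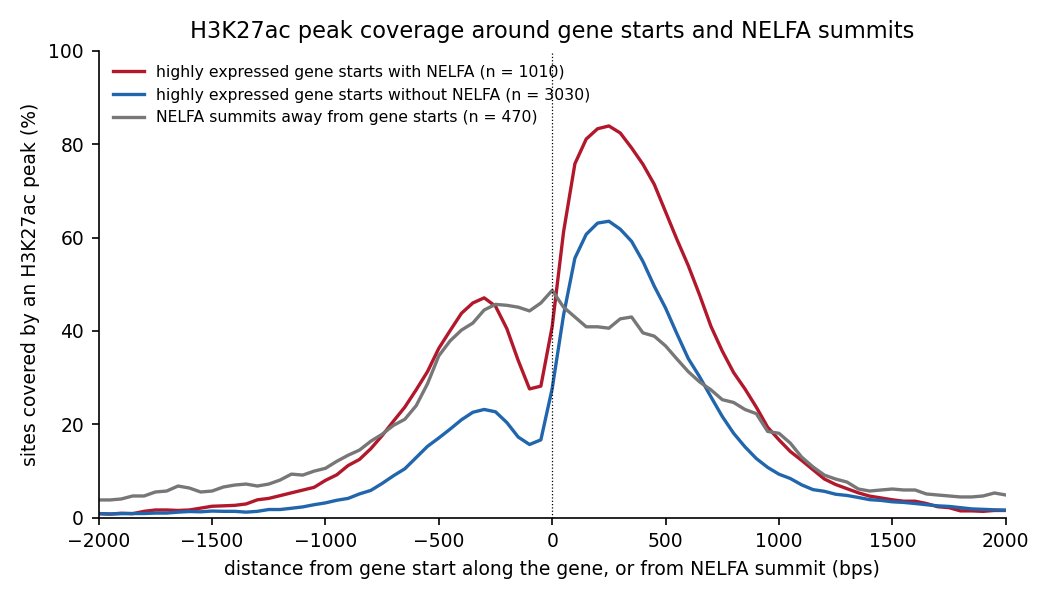
Share of sites covered by an H3K27ac peak (y axis, percent) by distance in bps (x axis) from the start of highly expressed genes with NELFA (red, n = 1010) or without NELFA (blue, n = 3030), along the gene, and from NELFA summits away from gene starts (grey, n = 470, genome orientation). Coverage with NELFA reaches 83.9% at 250 bps downstream and 47.1% at 300 bps upstream, against 63.5% and 23.2% without NELFA.

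H3K27ac peaks with NELFA were stronger and wider than those without. The median fold enrichment was 5.05 (interval 4.94 to 5.17, quartiles 3.51 and 7.07, n = 2575) with NELFA and 3.89 (interval 3.86 to 3.93, quartiles 3.17 and 5.22, n = 16730) without, and the median widths were 529 and 399 bps. The groups also differed in location, since 76.2% of the H3K27ac peaks with NELFA were at gene starts, against 34.7% of those without. Among peaks at gene starts the medians were 5.35-fold and 538 bps with NELFA (n = 1962) against 4.63-fold and 444 bps without (n = 5805). Away from starts they were 4.11-fold and 485 bps (n = 613) against 3.63-fold and 375 bps (n = 10925). At starts of highly expressed genes the difference narrowed to 5.35-fold (interval 5.19 to 5.63) against 4.92-fold (interval 4.81 to 5.03). At at least 100 TPM, the intervals overlapped, with 5.75-fold (interval 5.29 to 6.10) and 5.23-fold (interval 4.95 to 5.51). A wide peak covers more bases and so meets a NELFA peak more readily, so width and NELFA are not independent measures.

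**Figure D5:**
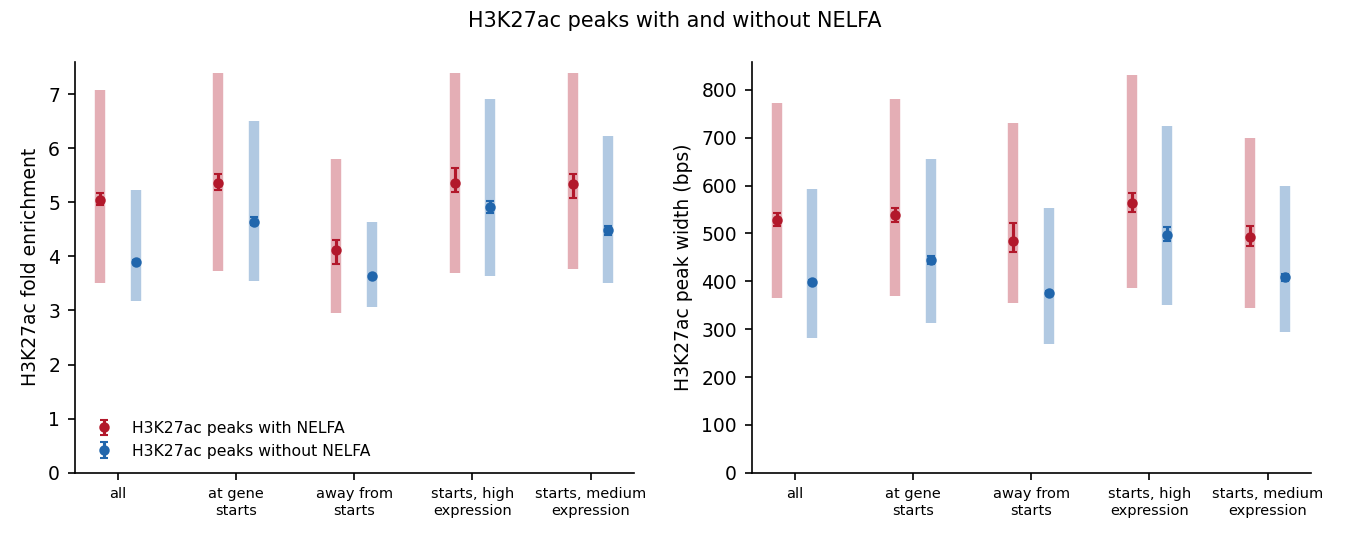
Fold enrichment (left, y axis) and width in bps (right, y axis) of H3K27ac peaks with NELFA (red) and without (blue), by location and by expression of the nearest gene start (x axis). Points are medians with 95% exact intervals and pale bars run between the quartiles. The medians with NELFA are above those without in each of the 5 groups.

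The relation to H3K27ac strength was not a straight line. NELFA was found at 10.2% of the weakest 20% of H3K27ac peaks, 8.0%, 9.17% and 13.8% of the next groups of the same size, and 25.5% of the strongest 20%. By width it rose from 7.04% of the narrowest 20% to 21.8% of the widest 20%. Across the 1398 NELFA peaks at gene starts with H3K27ac, the NELFA fold and the highest H3K27ac fold within 1 kb had a Spearman correlation of 0.03, and across the 391 peaks away from starts it was 0.31. These are descriptions across sites of the same 2 libraries. Fold enrichment also fell with the number of other H3K27ac summits within 5 kb, from a median of 4.46 with none to 2.91 with at least 3. Among peaks at gene starts with no other summit within 5 kb, the median was 7.0-fold with NELFA (interval 6.77 to 7.25, n = 687) and 5.21-fold without (interval 5.11 to 5.33, n = 3194). The gap was smaller with 1 other summit, at 4.85-fold (n = 990) against 4.16-fold (n = 2165), and with 2, at 4.15-fold (n = 232) against 3.70-fold (n = 371). With at least 3 the medians were 3.47-fold (n = 53) and 3.04-fold (n = 75). The intervals overlapped with 2 and with at least 3 other summits.

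The strongest H3K27ac peaks with NELFA were just upstream of small RNA genes. They were at the snRNA gene *Gm22973* (24.1-fold), *Rnu2-10*, a U2 snRNA gene (20.3-fold), the U3 snoRNA genes *Rnu3b4* (18.8-fold) and *Rnu3b1* (18.6-fold), and the noncoding gene *2900060B14Rik* in *Clasp1* (18.5-fold), with summits between 121 and 140 bps upstream of the start. NELFA lay on the other side of the start. At *Rnu2-10* its summit (20.4-fold) was 201 bps downstream of the start, and the H3K27ac summit was 124 bps upstream. At *Rnu3b2* the NELFA summit (24.0-fold) was 194 bps downstream, and the nearest upstream H3K27ac summit was 326 bps from it. Over the 49 NELFA peaks at small RNA genes away from protein-coding starts, an H3K27ac summit was within 1 kb upstream of NELFA at 32 (65.3%, interval 50.4 to 78.3%) and downstream at 16 (32.7%, interval 19.9 to 47.5%), and the nearest was upstream at 29 of 42, the reverse of the order at protein-coding genes. NELFA was within 1 kb of 34 of 1383 annotated snRNA genes (2.46%), a set with many inactive copies. The snRNA genes with a NELFA peak away from protein-coding starts had a median NELFA fold of 15.5 (n = 26), and 21 of these peaks had H3K27ac.

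The strongest H3K27ac peaks without NELFA were not at small RNA genes. They lay upstream of *Pum2* (25.1-fold), at the starts of the autophagy gene *Wdr45* (20.0-fold) and the transporter gene *Slc35b1* (16.6-fold), at *Gm16796* near *Cyp24a1* (19.4-fold), and at *Gm6787* upstream of *Was* (18.3-fold). Their distances to the nearest NELFA peak ran from 74239 to 5566228 bps.

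Gene lists were used to see which functions fell in which class, each against the 8.09% of all starts with NELFA and the 32.3% with H3K27ac. Of 25 housekeeping genes, 12 had both marks, 6 had H3K27ac alone, 7 had neither and none had NELFA alone. *Npm1*, the nucleolar phosphoprotein gene (NELFA 10.4-fold, H3K27ac 7.74-fold), *Hsp90ab1*, a chaperone gene (9.48-fold and 8.18-fold), and *Ppia*, the cyclophilin A gene (7.59-fold and 7.28-fold), were among the former. High mRNA was also found without a peak of either kind: *Eef2* at 1979 TPM and *Actg1* at 599 TPM had neither. *Hprt*, at 0.0522 TPM, was also among the 7 with neither. Of the 25 genes, 22 were in the high class, of which 80.9% had H3K27ac and 25% NELFA. Against that class, the 18 housekeeping genes with H3K27ac were not a larger share, whereas the 12 with NELFA were. The list had a median of 993 TPM, however, far above the class limit of 21.6 TPM. Among all genes of at least 100 TPM, 354 starts had NELFA and 550 did not. Whether the list differs from genes of like expression was not tested. Of 30 developmental regulators, which are mostly silent in mESCs (median 0.158 TPM), none had NELFA. Over all genes, NELFA was at 8.74% of medium class starts, 0.866% of low class starts and 0.348% of starts at 0 TPM. The absence of NELFA thus does not set this list apart from other genes of low expression.

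Immediate early genes respond rapidly to growth factors and are a textbook class of paused genes. Of these lists, theirs had the largest share of members with NELFA and no H3K27ac. Over all starts, 131 of 21938 (0.597%) had NELFA alone, out of 1774 with NELFA. Among members with NELFA, 6 of 14 immediate early genes and 4 of 10 pluripotency genes had no H3K27ac, so these lists were alike in this. Of the 25 immediate early genes, 14 had NELFA, 8 of them with H3K27ac and 6 without it within 1 kb of the start. A further 1 had H3K27ac alone and 10 had neither. The 6 were *Fos*, *Junb*, *Myc*, *Ier3*, *Dusp5* and *Id1*. *Fos*, an AP-1 subunit gene at 2.73 TPM, had NELFA of 7.93-fold 56 bps downstream of its start, and the nearest H3K27ac peak was 18815 bps from the start. *Junb* at 35.2 TPM had NELFA of 10.8-fold, with H3K27ac 1580 bps from the start. *Myc*, a growth regulator at 12.5 TPM, had NELFA of 8.10-fold and the nearest H3K27ac peak 59503 bps away. *Ier3* (5.51-fold), *Dusp5*, a MAP kinase phosphatase gene (4.55-fold), and *Id1*, a BMP target (7.54-fold, 141 TPM), had distances of 14997, 67464 and 5199 bps. Of the 8 with both marks, *Klf6* (NELFA 13.4-fold, H3K27ac 7.71-fold) and *Btg1* (13.3-fold and 7.5-fold) were the strongest in H3K27ac, and *Ier2* had NELFA of 9.51-fold beside a weak H3K27ac peak of 2.07-fold.

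Pluripotency genes were divided in the same way. Of 24, 6 had both marks, 4 had NELFA alone, 5 had H3K27ac alone and 9 had neither, although 20 were in the high class of expression. The 4 with NELFA alone were *Nanog* (5.79-fold), *Klf2* (8.13-fold), *Tdgf1*, the Nodal coreceptor gene (8.60-fold), and *Lefty1*, a Nodal inhibitor gene (4.55-fold), at 281, 251, 784 and 201 TPM. Their nearest H3K27ac peaks were 3348, 2176, 1683 and 1173 bps from the start. The 6 with both were *Sox2*, *Klf5*, *Zfp42*, *Tbx3*, *Nodal* and *Tfcp2l1*, with H3K27ac between 2.33-fold and 4.62-fold. These values lay below the median of 5.35-fold over all H3K27ac peaks at gene starts with NELFA. *Pou5f1* had neither mark within 1 kb and an H3K27ac peak 1244 bps from its start.

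Genes of the pausing machinery had shares close to those of highly expressed genes, of which 80.9% had H3K27ac and 25% NELFA. Of 24 genes for NELF, DSIF, P-TEFb, its partners, the Paf1 complex and RNAPII, 6 had both, 15 had H3K27ac alone and 3 had neither. The 6 were *Polr2a*, *Hexim1*, which encodes the P-TEFb inhibitor (NELFA 9.89-fold, H3K27ac 5.26-fold), *Supt5* (5.08-fold and 7.56-fold), *Nelfa* (4.90-fold and 9.41-fold), *Paf1* (4.28-fold and 3.50-fold) and *Aff4* (4.20-fold and 8.04-fold). At *Hexim1* the stronger of the NELFA peaks did not touch H3K27ac and was 32 bps from it, and a weaker one further upstream (4.27-fold) overlapped it. Of 15 genes for histone acetylation, its readers and its removal, 13 of them in the high class, 10 had H3K27ac alone within 1 kb of the start and 4 neither. *Hdac1*, a deacetylase gene, had NELFA alone (6.59-fold, with H3K27ac 1686 bps from the start). *Brd2* was among the 10, but its H3K27ac peak, 3052 bps wide, had NELFA overlapping or within 1 kb of the peak. *Ep300* and *Crebbp*, which encode the acetyltransferases p300 and CBP, had H3K27ac of 7.29-fold and 9.34-fold and no NELFA.

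Of 67 replication-dependent histone genes, 37 had both marks, 6 NELFA alone, 24 neither and none H3K27ac alone. Because these genes are short and clustered, their starts shared 31 NELFA peaks. These 31 peaks were strong, with a median of 15.0-fold (interval 13.8 to 18.2), whereas the 40 H3K27ac peaks there had a median of 4.41-fold (interval 3.83 to 5.42), within the range of other genes. H3K27ac summits lay on both sides of the NELFA summit at 7 of the 31 (22.6%).

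The 190 NELFA peaks with no H3K27ac within 1 kb were not weak. Their median fold was 4.89 (interval 4.71 to 5.19) and 5.30 at gene starts (n = 111), against 5.0 and 5.04 (n = 1321) for those overlapping H3K27ac. Their median distance to H3K27ac was 10584 bps, with 34 within 2 kb and 38 over 50 kb away. After *Hist1h1a*, the highest were at *Txnip*, the thioredoxin-interacting protein gene (14.7-fold, with H3K27ac 12340 bps away), *Csrnp2* (13.6-fold), the snRNA gene *Gm22265* in *Hhat* (13.1-fold) and *Junb* (10.8-fold). Away from gene starts, the next were at the snRNA genes *Gm24924* in *Ss18* (10.4-fold), *Gm26244* in *Rock1* (10.2-fold) and *Gm22042* (8.92-fold) and in *Cabyr* (8.25-fold). At starts, genes of this class had a median of 13.9 TPM (interval 10.8 to 19.8), against 34.6 TPM (interval 31.2 to 38.2) where NELFA overlapped H3K27ac. The highest NELFA peaks within 1 kb of H3K27ac without touching it were at *Zfp36l1* (16.1-fold, 537 bps from H3K27ac), the lincRNA gene *AI480526* (13.2-fold), upstream of *Zc3h11a* (11.7-fold), *Hexim1* and *Ier2*.

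The sequence at NELFA summits differed with location and with H3K27ac. In the 301 bases around the summit, the median ratio of observed to expected CpG was 0.90 (interval 0.89 to 0.91) at gene starts with H3K27ac and 0.83 (interval 0.79 to 0.88) without it. Away from starts it was 0.55 (interval 0.49 to 0.64) and 0.23 (interval 0.18 to 0.32). Over all protein-coding gene starts it was 0.59, and at highly expressed starts without NELFA it was 0.84 (interval 0.83 to 0.85). TATAAA on either strand was present in 7.22% (n = 1398, interval 5.92 to 8.71%) of NELFA windows at starts with H3K27ac and in 17.1% (19 of 111, interval 10.6 to 25.4%) of those without, against 10.7% of windows of this length at all starts. Without histone genes the shares were 6.93% and 15.9%. CCAAT was in 34.8% and 45.9%, against 36.7% of all starts, and GGGCGG, the core of the Sp1 site, in 68.2% and 65.8%, against 45.5%. At highly expressed starts without NELFA (n = 3029), TATAAA was in 4.66%, CCAAT in 37.3% and GGGCGG in 65.1%. The GGGCGG share at NELFA starts was thus close to that of highly expressed starts without NELFA. The *Fos* and *Junb* promoters printed above are among those with TATAAA and without H3K27ac, and *Polr2a* shows that the letters also occur with it. ATGCAAAT, TGACGTCA, TGACTCA and the CArG box, the element bound by serum response factor, were each in under 5% of NELFA windows at starts, and their intervals overlapped between starts with and without H3K27ac.

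Other readouts at the NELFA peaks differed with H3K27ac. RNAPII Ser5p lay within 1 kb of 62.7% (interval 60.1 to 65.3%) of the NELFA peaks at starts with H3K27ac and of 44.1% (interval 34.7 to 53.9%) of those without, and Ctr9 of 51.1% and 34.2%. Away from starts Ser5p was at 84.9% and 78.5%, with overlapping intervals. RNAPII Ser2p, the elongating form, went the other way away from starts, at 17.6% (interval 14.0 to 21.8%) of NELFA peaks with H3K27ac and at 45.6% (interval 34.3 to 57.2%) of those without. In NIH3T3 fibroblasts, H3K27ac was at 1602 of the 1643 starts with NELFA and H3K27ac in mESCs (97.5%) and at 100 of the 131 starts with NELFA alone (76.3%, interval 68.1 to 83.3%), against 44.7% of all starts. Most starts with NELFA and no H3K27ac peak in mESCs thus had H3K27ac in the other cell type, whose list is longer at 34241 peaks.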

How the data were processed

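ChIP-seq for NELFA-GFP and H3K27ac in mESCs was analysed as deposited, with the RNAPII Ser5p, RNAPII Ser2p and Ctr9 lists, the NIH3T3 H3K27ac list and mESC RNA-seq as other readouts, 1 library each. Per the authors' methods, bowtie2 2.3.5.1 placed reads on mm10, blacklisted regions were taken out, and macs2 2.2.6 ran on each sample with its q-value threshold set to 0.01. The score deposited by the authors is a scaled −log10 q. The deposited fold enrichment is a ratio, summit pileup over local background, and which input library was used for which list is not given in the sources used here. For each summit the authors also deposited −log10 of p and of q. The authors deposited TPM and estimated counts per transcript from kallisto 0.46.1, and the estimated counts add up to 26400407. The depth behind the peaks is unknown. A gene's TPM was that of its highest transcript.

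Overlap was at least 1 bp, and distances ran between peak edges for "within 1 kb" and between summits for flanks. Gene starts were those of 21938 protein-coding genes of GENCODE M21, of which 21905 matched the RNA-seq table. Sequences came from RefSeq GRCm38. Python 3.11.15, pandas, NumPy and SciPy were used, and the interval functions were tested on simulated peaks, where 6 of 6 checks passed. Named regions were the 5 of highest fold in each class, and named genes were list members with NELFA and *Actb*, *Ppia*, *Pou5f1*, *Sox2*, *Nanog*, *Esrrb* and *Zfp42*. Other genes were named after their values were seen, and the printed sequences were placed at gene starts, not at NELFA summits as planned. The members and lists were chosen with earlier results of these data known. Alternatives to overlap, windows, q-values, averages and expression classes were computed.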

Additional observations from a re-analysis of the deposited data

How the results depend on the processing

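Of 60 alternative values for 14 results, 2 of them chosen after seeing the data, 34 lay inside the 95% interval of the reported value and 26 outside it, and no difference between classes changed direction. With −log10 q of at least 5 in both lists, H3K27ac peaks had median folds of 5.18 with NELFA and 4.06 without, and widths of 543 and 418 bps. With the stronger 50% of H3K27ac peaks, 73.7% of NELFA peaks overlapped H3K27ac, 80.1% overlapped it or lay within 1 kb, and 18.1% had summits on both sides. The share overlapping was 61.1% when the NELFA summit had to lie inside the H3K27ac peak and 62.4% when at least 50% of the NELFA peak had to be covered. With 2 kb, 92.1% of NELFA peaks had H3K27ac and 78.2% of highly expressed starts without NELFA had it. With 500 bps these were 20.6% for NELFA summits with H3K27ac on both sides and 73.7% for highly expressed starts without NELFA. The upstream distance was 308 bps within 5 kb. Means in place of medians gave 303 bps upstream, 242 bps downstream, folds of 5.63 with NELFA and 4.47 without, and widths of 602 and 474 bps. With overlap alone, H3K27ac peaks with NELFA had a median fold of 5.76 and a width of 583 bps. At gene starts alone, the folds were 5.35 with NELFA and 4.63 without, and the width without NELFA was 444 bps. With 100 bps on each side, the CpG ratio at NELFA summits with H3K27ac was 0.878. The cause of these shifts was not tested. No paired analysis was possible because each list comes from 1 library. The depth of the ChIP-seq libraries is unknown, so a site without a peak may lie below the detection limit, and the NELFA list, at 1980 peaks, holds the sites of highest enrichment.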
